A study of Arabidopsis thaliana with 30 samples.

Results

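The blue light response of uvr8-2 was read as the step between 2 sunlight filters in the Arabidopsis thaliana mutant that lacks a working UVR8, the UV-B photoreceptor. Its members are the 4 libraries of uvr8-2 rosettes under the UV0 filter (2 libraries) and the blue0 filter (2 libraries), of 30 libraries in all, and they were chosen by their labels alone. The study grew uvr8-2, cry1cry2, which lacks cryptochromes 1 and 2, and the wild type Ler, and kept 3-week-old plants outdoors for 6 h, sunrise to solar noon of 1 day, under 5 long-pass plastic filters. The filters are named blue0, UV0, UVA350, UVA and UVA+B, and going by these names UV0 takes away UV radiation and blue0 takes away blue light as well. Each library held poly(A) RNA of whole rosettes from 2 of 4 field blocks, each block sample being 5 rosettes, and all plants had been raised in growth rooms behind a film that kept out the lamps' UV-A. The labels give neither cut-off wavelengths nor the irradiance under each filter, so blue light and total light cannot be told apart. The replicate unit is therefore a pool of rosettes from a pair of blocks on a single day.

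Plants sense blue light mainly through the cryptochromes CRY1 and CRY2 and the phototropins. Light-activated cryptochromes restrain the COP1-SPA ubiquitin ligase, which lets the transcription factor HY5 build up and switch on genes for flavonoid sunscreens, photoprotection and DNA repair, and they also bind growth-promoting PIF and CIB transcription factors. UVR8 feeds into the same COP1-HY5 route when it absorbs UV-B, which the UV0 and blue0 filters both hold back.

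The 4 libraries held 20767496 and 16497967 estimated counts under UV0 and 22865826 and 16999176 under blue0. Chloroplast-encoded loci took 0.343% and 0.413% of the counts in the UV0 replicates 1 and 2, and 0.261% and 1.58% in the blue0 replicates 1 and 2. Among these 4, the blue0 replicate 2 library thus stood apart. It had the highest chloroplast share of the 30 libraries, ahead of cry1cry2 replicate 2 under UVA (1.316%) and under UVA+B (1.165%). In that library 4 loci, ATCG00950, ATCG01180, ATCG00920 and ATCG01210, held 94.4% of the chloroplast counts, and they held 86.7% to 90.7% in the other 3. ATCG00950 and ATCG01180 had equal values, as did ATCG00920 and ATCG01210, so the counts of each pair cannot be told apart. The table lists 133 chloroplast loci, of which 54 passed the filter on low counts. Of these, 51 were higher in blue0 replicate 2 than in blue0 replicate 1, with a median log2 difference of 1.54. For the other genes that median was -0.004. Between UV0 replicates 2 and 1 the median for chloroplast loci was 0.62. Mitochondrion-encoded loci moved the same way, with summed levels of 77.0 and 84.3 CPM (counts scaled by library size) under UV0 and 62.9 and 307.3 CPM under blue0. Between UV0 and blue0 1 chloroplast locus was called, ATCG00170 (log2 change 1.34 ± 0.42), and no mitochondrial one.

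**Figure D1:**
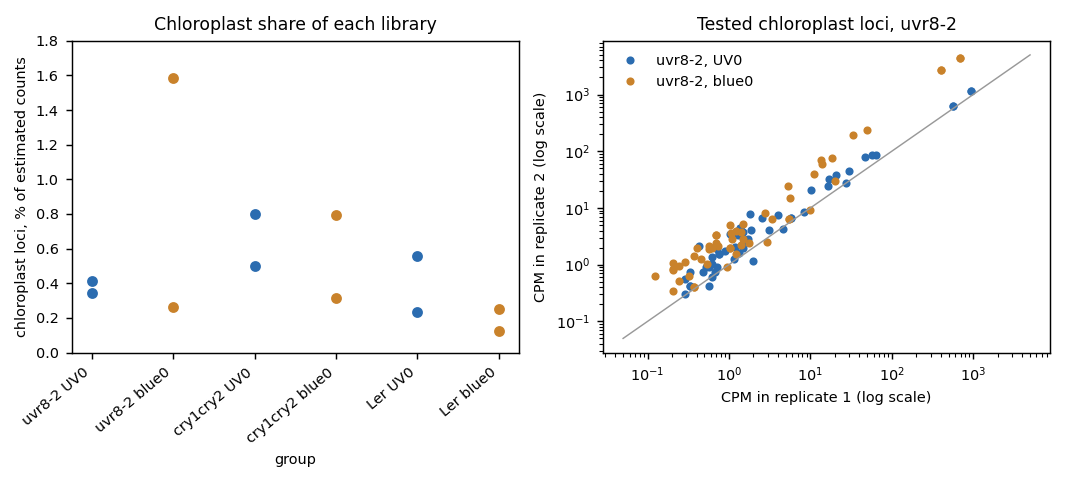
Left, the share of estimated counts (%) that fell on chloroplast loci in each library of the UV0 and blue0 groups of the 3 genotypes, 1 point per library. Right, levels (CPM, log axes) of the 54 tested chloroplast loci in replicate 2 against replicate 1 of uvr8-2 under each filter, with the line of equality; blue0 replicate 2, at 1.58%, lies above the line for 51 loci.

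Of 19980 genes tested, 3046 (15.2%) differed between UV0 and blue0 in uvr8-2 with an adjusted p below 0.05. The test was the quasi-likelihood F test of edgeR, adjusted by the Benjamini-Hochberg method over every gene tested. UV0 was higher for 1675 of them (8.38% of the genes tested) and lower for 1371 (6.86%). Counts of list members below, with all libraries, are to be read against these shares. Most steps were small: 382 genes were at least 2-fold higher under UV0 and 312 at least 2-fold lower, 78 and 49 passed 4-fold, and 1382 called genes changed by less than 1.5-fold. The median log2 change over all tested genes was -0.01. Errors of log2 changes are SE from this fit, with n = 2 libraries per filter. The fit covers all 30 libraries, and its 15 groups share the estimate of the spread. Scaled by library totals alone, 1187 genes were higher and 1992 lower. Leaving out blue0 replicate 2 left 1649 calls, leaving out UV0 replicate 2 left 1839, and 931 genes (4.66% of those tested; 573 or 2.87% higher, 358 or 1.79% lower) stayed called whichever of the 4 libraries was left out. Counts of list members without blue0 replicate 2 are given below. Fewer genes were called in that fit over all genes as well, so those counts are not to be set against 8.38% and 6.86%. Each library sums the RNA of pooled whole rosettes, so fewer cells of a type and less RNA per cell cannot be told apart.

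The UVR8 transcript itself was close to level across the step, with 141 and 142 CPM under UV0 and 133 and 133 CPM under blue0 (log2 change 0.09 ± 0.09, SE; adjusted p = 0.562). Ler had 133 and 133 CPM under UV0 and 125 and 124 CPM under blue0, so the transcript level does not mark the uvr8-2 libraries out. The label of the mutant could not be checked from this transcript for that reason, and a check from other genes was not made.

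Among photoreceptors and their partners, CIB1 showed the largest fall of any gene named here. CIB1, a helix-loop-helix factor that binds CRY2 in blue light and promotes flowering, had 0.712 and 0.183 CPM under UV0 and 9.21 and 13.7 CPM under blue0 (log2 change -4.57 ± 0.74, adjusted p = 0.000848). CRY3, a cryptochrome of the DASH type that acts as a photolyase in organelles, rose instead: it had 26.2 and 26.3 CPM under UV0 against 5.30 and 5.03 CPM under blue0 (2.34 ± 0.17, adjusted p = 3.91e-08). The replicates of both groups lay within a few percent of each other for CRY3. CRY1 fell slightly, with 94.1 and 83.3 CPM under UV0 and 128 and 118 CPM under blue0 (-0.47 ± 0.11, adjusted p = 0.00646), a call lost without UV0 replicate 2 or blue0 replicate 1. CRY2 had 83.2 and 97.4 CPM under UV0 and 109 and 131 CPM under blue0, which did not pass the test (-0.41 ± 0.18, adjusted p = 0.14). For CRY1 and CRY2 both UV0 libraries lay below both blue0 libraries. PHOT1, the phototropin that steers hypocotyl bending, fell by 0.47 on the log2 scale, and RPT2, which works with it, fell by 1.2, whereas PHOT2 was at 0.03 ± 0.12. AT3G52740 and AT3G44450 stand in the gene list as the cryptochrome inhibitors BIC1 and BIC2, though the reference gene table leaves them uncharacterized. Their log2 changes were 1.38 ± 0.21 and 0.83 ± 0.16 (adjusted p = 9.93e-05 and 0.00112). AT3G52740 had 28.5 and 24.2 CPM under UV0 and 9.74 and 10.5 CPM under blue0. In the whole list of 16 genes for blue-light perception and signalling, 5 rose and 4 fell (4 and 4 without blue0 replicate 2), and the median change was 0.08.

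The HY5 module rose almost as a unit. In the list of HY5, COP1-SPA and UVR8-RUP genes 9 of 11 tested members rose and none fell, with a median log2 change of 0.70, and 8 rose without blue0 replicate 2. HY5, the bZIP factor at its centre, had 18.3 and 12.5 CPM under UV0 and 4.36 and 8.2 CPM under blue0 (1.33 ± 0.27, adjusted p = 0.00218). Its homolog HYH had 22.3 and 15.7 CPM under UV0 and 4.03 and 4.52 CPM under blue0 (2.16 ± 0.35, adjusted p = 0.000449). RUP2, a WD40 protein that returns UVR8 to its inactive dimer, had 16.0 and 14.5 CPM under UV0 against 3.63 and 2.71 CPM under blue0 (2.25 ± 0.29, adjusted p = 3.19e-05). RUP2 transcripts thus rose about as far as HYH transcripts. Both filters hold back UV-B, so the part of UVR8 was not tested by this step. The repressors of light signalling in the list moved by less: COP1 rose by 0.60 ± 0.12, SPA2 by 0.66 ± 0.10 and DET1 by 0.52 ± 0.09. Of 13 B-box regulators, zinc-finger proteins that act with or against HY5, BBX22 rose (1.18 ± 0.14) and BBX21 and BBX15 fell (-0.72 ± 0.12 and -0.64 ± 0.12), and the same numbers, 1 and 2, were called without blue0 replicate 2. Over all genes tested 8.38% were called higher and 6.86% lower, so these few calls are not read as a trend of the B-box list. BBX17, which is not in that list, had 2.90 and 3.16 CPM under UV0 and 15.0 and 12.5 CPM under blue0 (-2.18 ± 0.37, adjusted p = 0.000383).

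**Figure D2:**
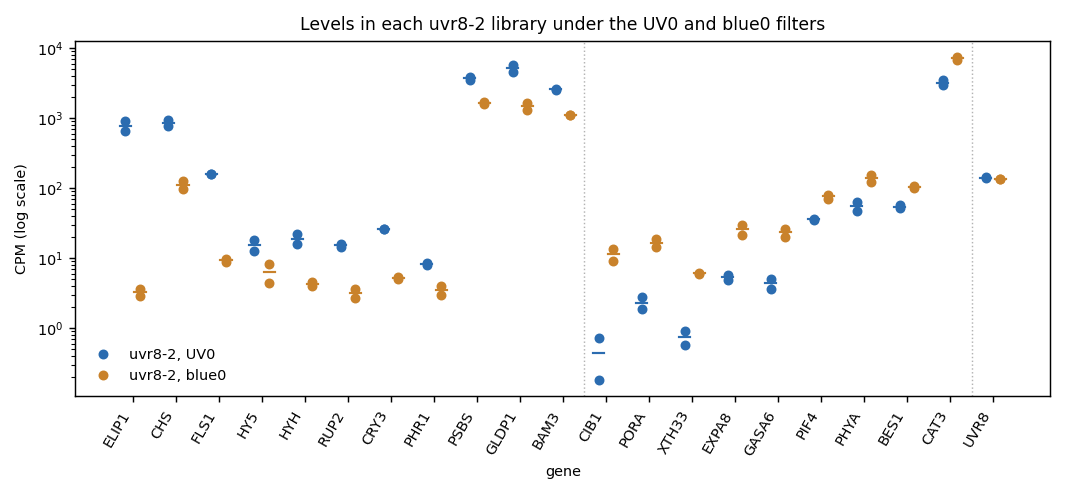
Levels (CPM, log axis) of 21 named genes in each uvr8-2 library, UV0 left and blue0 right for each gene, with 1 point per library and a bar at the group mean. The first 11 genes rose under UV0, the next 9 fell and UVR8, at 141 and 142 CPM under UV0 and 133 and 133 CPM under blue0, was not called. The UV0 and blue0 points do not overlap for any called gene shown, nor for UVR8. Of all 3046 called genes, 3043 had no overlap. The test itself favours such genes, and the share without overlap among all genes tested was not counted, so this count adds no support.

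Enzyme genes of phenylpropanoid and flavonoid synthesis rose almost throughout. Of 20 tested phenylpropanoid and flavonoid enzymes 18 rose and none fell, their median log2 change was 1.66, and 18 rose again without blue0 replicate 2. Chalcone synthase, CHS, which opens the flavonoid pathway, had 934 and 765 CPM under UV0 and 126 and 96.9 CPM under blue0 (2.93 ± 0.30, adjusted p = 2.76e-06). Flavonol synthase, FLS1, had 158 and 158 CPM under UV0 against 8.92 and 9.67 CPM under blue0 (4.09 ± 0.41, adjusted p = 3.1e-06). F3H, which makes the substrate of FLS1, had 250 and 183 CPM under UV0 and 22.2 and 17 CPM under blue0 (3.46 ± 0.39). An antisense transcript, AT3G51238, overlaps F3H and showed a log2 change of 4.29, and reads of the pair cannot be assigned with certainty because nothing here says whether the counting used strand. The late anthocyanin enzymes DFR and LDOX rose less, by 1.2 ± 0.22 and 1.14 ± 0.23. UGT78D3, which adds a sugar to flavonols, had 15.2 and 15.3 CPM under UV0 against 1.22 and 1.81 CPM under blue0 (3.36 ± 0.48).

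The regulators of this pathway were less uniform than its enzymes. Of 15 tested flavonoid regulators 8 rose and 1 fell, with a median log2 change of 0.57, or 0.75 without blue0 replicate 2. MYB12, an activator of flavonol genes, had 3.18 and 0.852 CPM under UV0 and 0.163 and 0.0566 CPM under blue0 (4.08 ± 0.93, adjusted p = 0.006), and its call was lost without UV0 replicate 1 or blue0 replicate 2. Its relative MYB11 had 2.52 and 1.34 CPM under UV0 against 0.285 and 0.170 CPM under blue0 (3.02 ± 0.52). PAP1, an activator of anthocyanin genes, had 88.2 and 78.6 CPM under UV0 against 27.3 and 37.0 CPM under blue0 (1.38 ± 0.31), and its call was lost without blue0 replicate 1.

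Photoprotection held the largest step of all. ELIP1, a thylakoid protein that is made under excess light, had 902 and 656 CPM under UV0 and 3.67 and 2.83 CPM under blue0 (7.89 ± 0.55, adjusted p = 9.75e-08). ELIP2 had 135 and 156 CPM under UV0 against 0.611 and 0.848 CPM under blue0 (7.66 ± 0.86, adjusted p = 1.78e-05). PSBS, the sensor protein of non-photochemical quenching, had 3560 and 3840 CPM under UV0 and 1600 and 1710 CPM under blue0 (1.16 ± 0.11, adjusted p = 5.63e-07). In the list of 17 photoprotection and carotenoid genes 11 rose and none fell, with a median of 0.60, and 10 rose without blue0 replicate 2. The carotenoid enzyme ZDS (0.94 ± 0.10) and the one-helix protein OHP2 (1.08 ± 0.11) were among them.

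DNA repair and plastid transcription genes rose in part. The photolyase PHR1, which splits cyclobutane pyrimidine dimers, had 8.59 and 8.09 CPM under UV0 and 3.95 and 3.00 CPM under blue0 (1.25 ± 0.24, adjusted p = 0.000926), so both UV0 libraries lay above both blue0 libraries. UVR3, the (6-4) photolyase, had 0.949 and 1.58 CPM under UV0 against 1.34 and 1.07 CPM under blue0 (0.02 ± 0.47, adjusted p = 0.985). Together with CRY3, 2 of 3 photolyase genes rose, and 2 did without blue0 replicate 2. SIG5, a light-responsive sigma factor of the plastid RNA polymerase, had 212 and 59.5 CPM under UV0 against 34.7 and 24.0 CPM under blue0 (2.21 ± 0.64, adjusted p = 0.0291). The UV0 replicates of SIG5 differed more than 3-fold, and its call was lost in each of the fits without UV0 replicate 1, blue0 replicate 1 or blue0 replicate 2. SIG3 also rose by 0.44 ± 0.12, a call lost without UV0 replicate 1 or blue0 replicate 1, and 1 of the 6 sigma factors was called without blue0 replicate 2.

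Light harvesting genes went the other way. Of 22 tested genes for light-harvesting proteins and the small subunit of Rubisco 4 rose and 11 fell, the median was -0.65, and 3 rose and 6 fell without blue0 replicate 2. The summed level of the list was 61810 and 63870 CPM under UV0 and 79880 and 79350 CPM under blue0. LHCB4.2, an antenna protein of photosystem II, had 297 and 218 CPM under UV0 and 868 and 683 CPM under blue0 (-1.59 ± 0.34, adjusted p = 0.00381), with the call lost without UV0 replicate 2. LHCA2, of the photosystem I antenna, had 2180 and 1910 CPM under UV0 against 3280 and 3250 CPM under blue0 (-0.68 ± 0.14). LHCB1.4 had 393 and 256 CPM under UV0 against 1810 and 1520 CPM under blue0 (-2.36 ± 0.57), but the LHCB1 genes are near-identical copies, so the split of reads among them is uncertain. The 4 that rose were LHCB4.3 and 3 small-subunit genes, RBCS1A, RBCS1B and RBCS2B, the last also from near-identical copies. LHCB4.3, an antenna form known from plants in strong light, had 193 and 219 CPM under UV0 and 52.6 and 61.3 CPM under blue0 (1.85 ± 0.19, adjusted p = 2.11e-06). It thus moved against its close relatives LHCB4.1 (-0.61 ± 0.12) and LHCB4.2.

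Chlorophyll synthesis showed no common direction, with 3 genes higher and 3 lower of 19 tested (1 and 3 without blue0 replicate 2). With all libraries, 8.38% of all genes tested were called higher and 6.86% lower. PORA, the protochlorophyllide reductase of etiolated seedlings, had 1.85 and 2.74 CPM under UV0 and 14.2 and 18.8 CPM under blue0 (-2.86 ± 0.46, adjusted p = 0.000339). PORB, the form of green leaves, had 484 and 767 CPM under UV0 against 1190 and 1420 CPM under blue0 (-1.06 ± 0.23), and this call was lost without UV0 replicate 1.

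Most photorespiration genes and some starch genes were called higher. Of 14 photorespiration genes 10 rose and none fell, with a median of 0.57, and again 10 rose without blue0 replicate 2. GLDP1, the P-protein of the mitochondrial glycine decarboxylase, had 5770 and 4500 CPM under UV0 and 1330 and 1640 CPM under blue0 (1.79 ± 0.21, adjusted p = 5.66e-06). GLU1, the glutamate synthase that recovers photorespiratory ammonia, had 1950 and 1650 CPM under UV0 against 796 and 776 CPM under blue0 (1.2 ± 0.13, adjusted p = 1.74e-06). The summed level of the photorespiration list was 22970 and 21240 CPM under UV0 against 11910 and 13840 CPM under blue0. In the list of starch, sugar and low-energy genes 9 of 19 rose and 2 fell (7 and 2 without blue0 replicate 2). Its risers covered both making and breaking starch: APS1, a subunit of ADP-glucose pyrophosphorylase, rose by 0.79 ± 0.09, and the beta-amylase BAM3, with 2650 and 2530 CPM under UV0 and 1100 and 1120 CPM under blue0, rose by 1.22 ± 0.2. SEN1, a marker of darkened leaves, had 1.47 and 4.02 CPM under UV0 and 11.4 and 29.7 CPM under blue0 (-2.93 ± 0.57, adjusted p = 0.00176).

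Among genes of elongation growth, more were called lower than higher under UV0, and most were not called. PIF4, a helix-loop-helix factor that drives elongation, had 36.7 and 35.5 CPM under UV0 and 81.1 and 70.9 CPM under blue0 (-1.07 ± 0.13, adjusted p = 1.21e-05). PHYA, the far-red photoreceptor, had 63.0 and 47.4 CPM under UV0 and 153 and 124 CPM under blue0 (-1.32 ± 0.18, adjusted p = 3.1e-05). In the list of 18 phytochromes, PIFs and shade markers 2 rose, 5 fell and 11 were not called (0 rose and 4 fell without blue0 replicate 2). By comparison, 8.38% of all genes tested were called higher and 6.86% lower with all libraries. HFR1, a repressor of shade avoidance, had 8.97 and 4.44 CPM under UV0 and 9.17 and 8.31 CPM under blue0, which overlapped (-0.37 ± 0.48, adjusted p = 0.677).

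Wall-loosening proteins form the next list. Among 23 expansins and xyloglucan endotransglucosylases 10 fell, 2 rose and 11 were not called, the median was -0.72, and 8 fell and none rose without blue0 replicate 2. XTH33 had 0.570 and 0.913 CPM under UV0 and 6.19 and 5.88 CPM under blue0 (-3.04 ± 0.49, adjusted p = 0.000209). The expansin EXPA8 had 5.79 and 4.93 CPM under UV0 against 29.8 and 21.7 CPM under blue0 (-2.26 ± 0.36). XTH4 had 48.2 and 56.2 CPM under UV0 against 123 and 134 CPM under blue0 (-1.30 ± 0.15, adjusted p = 5.11e-06). XTH17 had 0.76 and 0.365 CPM under UV0 against 1.26 and 1.3 CPM under blue0 and did not pass (-1.14 ± 0.54, adjusted p = 0.17).

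In the auxin and brassinosteroid lists more genes were called lower than higher. Of 20 tested auxin genes 6 fell and 1 rose, the counts without blue0 replicate 2 were also 6 and 1, and the median was -0.67. GH3.3, which conjugates auxin to amino acids, had 11.6 and 13.1 CPM under UV0 against 37.2 and 32.0 CPM under blue0 (-1.49 ± 0.30). IAA29, an auxin-induced repressor, had 11.6 and 9.07 CPM under UV0 against 17.6 and 22.8 CPM under blue0 without passing the test (-0.95 ± 0.39, adjusted p = 0.111). Of 19 brassinosteroid and PRE genes 5 fell and none rose (3 without blue0 replicate 2), among them the transcription factor BES1 (-0.94 ± 0.12) and the biosynthetic enzyme CPD (-0.76 ± 0.14). Among 15 tested gibberellin genes 3 rose and 5 fell, and 3 and 4 did so without blue0 replicate 2. Shares over all genes tested, with all libraries, were 8.38% called higher and 6.86% lower. GA2OX1, an enzyme that inactivates gibberellin, had 10.4 and 8.95 CPM under UV0 and 0.326 and 0.792 CPM under blue0 (4.18 ± 0.35, adjusted p = 1.3e-07). GASA6, a gibberellin-induced peptide, had 3.66 and 5.05 CPM under UV0 against 20.0 and 26.5 CPM under blue0 (-2.42 ± 0.37). A second inactivating enzyme, GA2OX8, rose by 2.07 ± 0.40.

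**Figure D3:**
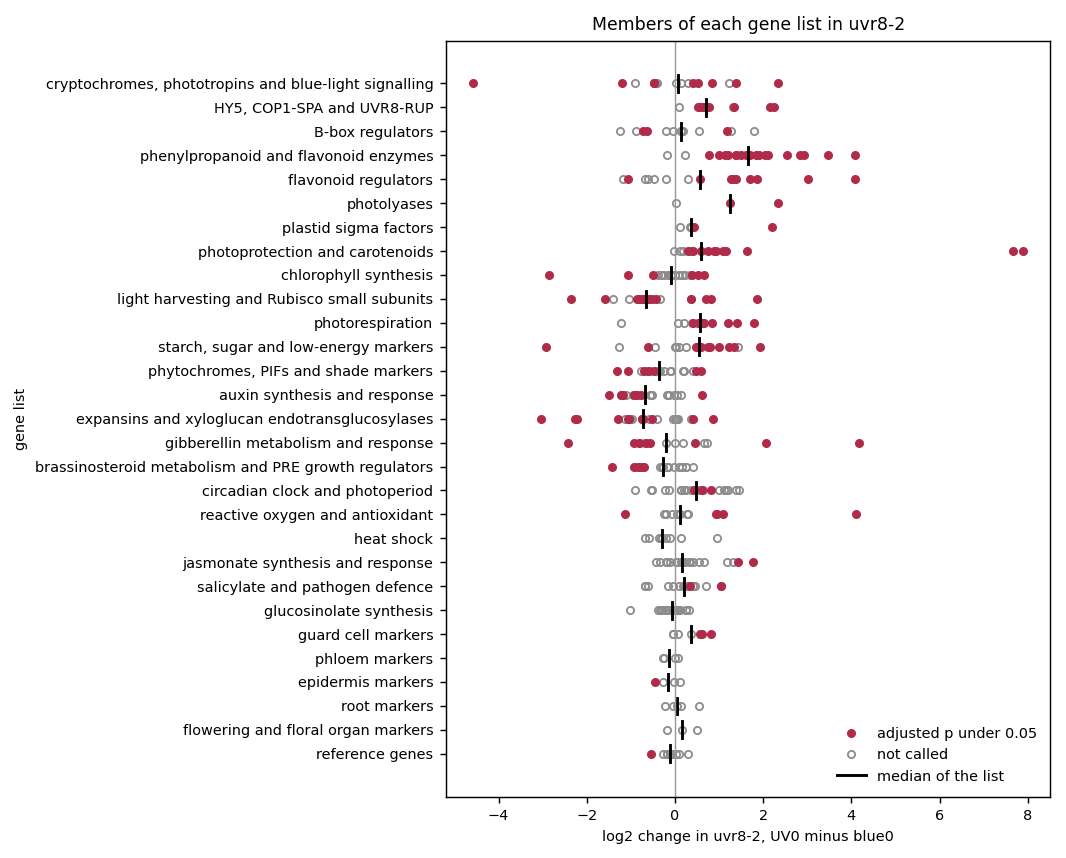
Log2 change in uvr8-2 (UV0 minus blue0) of each tested member of the 29 gene lists, 1 point per gene, filled where the adjusted p was under 0.05, with a bar at the median of the list. The median was 1.66 for phenylpropanoid and flavonoid enzymes and -0.72 for expansins and xyloglucan endotransglucosylases, against -0.01 over all genes.

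Few members of the clock and defence lists were called. The shares called higher in the clock, jasmonate and salicylate lists lay near the 8.38% of all genes tested. Of 25 clock and photoperiod genes 3 rose and none fell (2 without blue0 replicate 2), although the median was 0.48. GI, a clock-linked regulator of flowering that acts in blue light, had 237 and 234 CPM under UV0 and 131 and 137 CPM under blue0 (0.81 ± 0.17, adjusted p = 0.0025). Of 13 genes for reactive oxygen and antioxidants 4 rose and 1 fell, so the share called higher was above that of all genes. The median was 0.11, or 0.15 without blue0 replicate 2. GPX7, a plastid glutathione peroxidase, had 39.6 and 32.7 CPM under UV0 and 2.00 and 2.21 CPM under blue0 (4.11 ± 0.29, adjusted p = 3.91e-08), while the catalase CAT3 had 3530 and 2940 CPM under UV0 against 7520 and 6770 CPM under blue0 (-1.14 ± 0.16). JAZ9, a jasmonate repressor, had 601 and 651 CPM under UV0 against 197 and 269 CPM under blue0 (1.43 ± 0.24). The counts were 2 higher and none lower of 21 jasmonate genes (1 without blue0 replicate 2) and 2 higher and none lower of 16 salicylate and pathogen defence genes (none without blue0 replicate 2). None of 9 heat shock genes and none of 21 glucosinolate genes was called in either direction. Their medians were -0.30 and -0.06.

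Markers of cell types other than mesophyll were set beside these lists. Of 7 guard cell markers 3 rose and none fell (2 without blue0 replicate 2), KAT1 among them with 81.0 and 83.3 CPM under UV0 and 53.0 and 54.0 CPM under blue0, while the summed level of the list was 2020 to 2073 CPM under UV0 and 2048 to 2081 CPM under blue0. TGG1, a myrosinase, made up most of this sum, and the other 6 markers summed to 174 and 165 CPM under UV0 and 115 and 124 CPM under blue0. No phloem marker of 4, no root marker of 5 tested and no floral marker of 3 tested was called. Of the 4 epidermis markers LTP1 alone fell (-0.45 ± 0.13), a call lost in each of the 4 fits without a library. Summed phloem levels ran from 236.5 to 243.7 CPM under UV0 and from 275.6 to 276.2 CPM under blue0, and summed epidermis levels from 856.2 to 878.9 CPM under UV0 and from 1041 to 1133 CPM under blue0. Summed root levels were 86.68 to 91.16 CPM under UV0 and 80.3 to 88.69 CPM under blue0, and summed floral levels 69.42 to 73.73 CPM under UV0 and 57.96 to 69.76 CPM under blue0. Of the 8 root markers EXPA7 was at 0 in all 4 libraries, IRT1, COBL9, PHT1;1 and NRT2.1 stayed under 2 CPM, and SHR, SCR and PYK10 ranged from 13.2 to 49 CPM. Of the 7 floral markers AP1, AP3, PI and LFY stayed under 0.4 CPM, AG and SEP3 ranged from 1.19 to 2.43 CPM and SOC1 from 53.7 to 69.8 CPM. The part of these markers in the results was not tested. Of 9 reference genes ACT8 fell, with 90.1 and 81.9 CPM under UV0 and 135 and 116 CPM under blue0 (-0.55 ± 0.11, adjusted p = 0.00162).

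Several of the largest steps lay outside the lists. NIT4, a nitrilase of cyanide detoxification, had 93.9 and 39.6 CPM under UV0 and 4.89 and 6.56 CPM under blue0 (3.56 ± 0.42, adjusted p = 2.54e-05). AT4G18422, an uncharacterized gene, had 31.8 and 27.1 CPM under UV0 against 2.08 and 2.15 CPM under blue0 (3.8 ± 0.28). ESE3, a protein of the AP2/ERF transcription factor family, had 2.09 and 1.95 CPM under UV0 against 11 and 11.6 CPM under blue0 (-2.48 ± 0.29, adjusted p = 5.66e-06). The replicates of these genes did not overlap between filters, which the naming rule required of the largest steps. Other large steps rested on single libraries. NUDT24, a nudix hydrolase, had 110 and 15.8 CPM under UV0 against 9.33 and 6.22 CPM under blue0, and AT2G05250, a DnaJ-type protein, had 0.380 and 0.365 CPM under UV0 against 10.9 and 0.396 CPM under blue0; each lost its call in 3 of the 4 fits without a library. Of 105 called genes that the naming rule picked, 90 kept their call without blue0 replicate 2. The 15 that lost it were LEA3, UGT84A1, NUDT24, AT3G53402, AT1G80800, MYB12, SIG5, PHYE, BZIP61, AT5G52660, VSP1, PBS3, NPR1, SLAC1 and LTP1.

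The same step was then set against Ler and cry1cry2, whose UV0 and blue0 libraries are not those of uvr8-2. In cry1cry2 35 genes were called (0.175% of 19980; 32 or 0.16% higher and 3 or 0.015% lower), and in Ler 3624 (18.1%; 1939 or 9.7% higher and 1685 or 8.43% lower; 1188 and 3515 when scaled by library totals alone). The count for cry1cry2 was 53 without its UV0 replicate 1, 3 without UV0 replicate 2, 4 without blue0 replicate 1 and 4 without blue0 replicate 2, and 99 by DESeq2. The count for Ler lay between 1655 and 2323 without 1 of its libraries. Of the 1675 genes that rose in uvr8-2, 1181 (70.5%) also rose in Ler, which is 60.9% of the genes that rose there. Of the 1371 that fell in uvr8-2, 926 (67.5%) also fell in Ler, or 55% of its list, and no gene was called in opposite directions. A direct test of the difference between the steps of uvr8-2 and Ler called 0 genes by edgeR and 0 by DESeq2. By edgeR 665 of 19980 genes had an unadjusted p under 0.05, which is less than a share of 0.05. The median SE of that difference was 0.25 on the log2 scale, so small differences in single genes could not have been seen. In simulated data edgeR recovered 50.7% of 2-fold and 9% of 1.5-fold differences in this test. The lack of calls thus does not show that the steps are alike. CHS had a difference of -0.18, ELIP1 of -0.10 and HY5 of -0.40 (uvr8-2 minus Ler). RUP2 rose by 2.25 in uvr8-2 and by 3.03 in Ler, a difference of -0.78 that was not called.

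In the fit with all libraries, the 35 genes called in cry1cry2 were also called in uvr8-2, in the same direction. ELIP1, for example, had 59.3 and 141 CPM under UV0 and 3.49 and 1.43 CPM under blue0 in cry1cry2 (5.39, adjusted p = 8.15e-05). GPX7 changed by 4.11 in uvr8-2 and by 4.06 in cry1cry2. HY5 in cry1cry2 was at 17.5 and 24.3 CPM under UV0 and at 12.0 and 12.4 CPM under blue0, above the blue0 level of uvr8-2, and its change there (0.77) was not called. To compare the genotypes on genes that neither had picked, the genes called in Ler were used. The 1939 genes higher in Ler had a median log2 change of 0.51 in uvr8-2, 0.21 in cry1cry2 and 0.64 in Ler, and the 1685 lower ones had medians of -0.44, -0.17 and -0.56 in the same order. The Ler medians are raised by the choice on Ler itself.

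**Figure D4:**
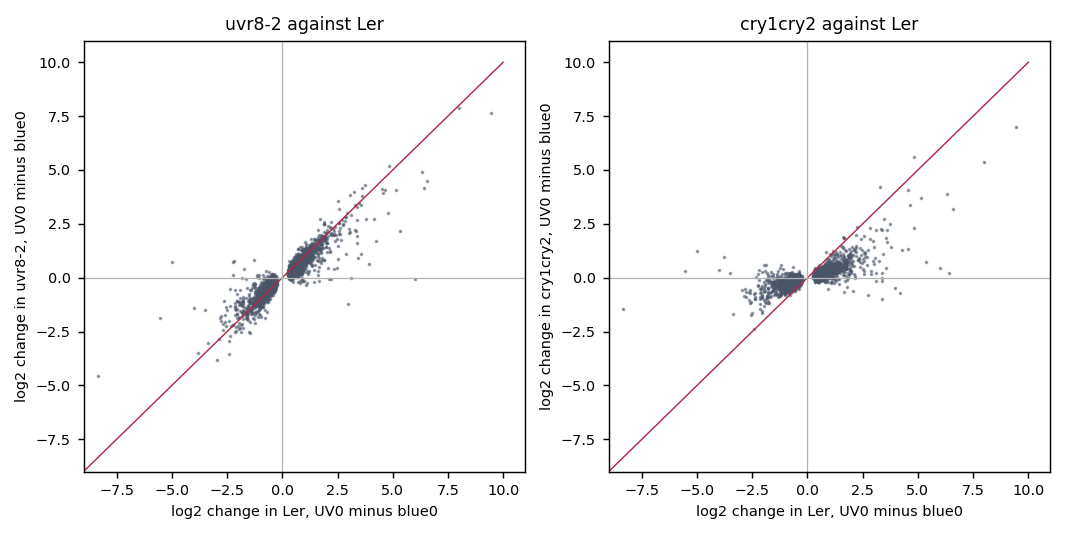
Log2 change (UV0 minus blue0) of the 3624 genes called in Ler, 1 point per gene, in uvr8-2 (left) and in cry1cry2 (right) against the change in Ler, with the line of equality. The points lie closer to that line in uvr8-2 (medians 0.51 and -0.44 for the genes higher and lower in Ler) than in cry1cry2 (0.21 and -0.17).

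The step of uvr8-2 minus that of cry1cry2 was called for 176 genes (0.881% of 19980), 122 of them (0.611%) more positive in uvr8-2 and 54 (0.27%) more negative (108 and 77 when scaled by library totals alone). This count hung on single libraries: it ran from 4 without cry1cry2 UV0 replicate 1 to 127 without uvr8-2 UV0 replicate 2, and was 52 without uvr8-2 blue0 replicate 2. The genes AT3G03150, GLU1 and FAD8 were called in the full fit and in all 8 such fits, and they are named for that, after their values were seen. FAD8, a plastid fatty acid desaturase, changed by 1.87 in uvr8-2 and by 0.44 in cry1cry2, a difference of 1.44 ± 0.18 (edgeR adjusted p = 0.00136). GLU1 had 1000 and 1010 CPM under UV0 and 1020 and 1080 CPM under blue0 in cry1cry2, so its difference was 1.26 ± 0.18 (adjusted p = 0.00277). AT3G03150 changed by -1.17 in uvr8-2 and by -0.02 in cry1cry2. Photoprotection and photorespiration members were among the 176: PSBS (0.72 ± 0.15, adjusted p = 0.0278), OHP2 (0.73 ± 0.16), ZDS (0.72 ± 0.14) and GLDP1 (1.4 ± 0.29, adjusted p = 0.0239). No phenylpropanoid or flavonoid enzyme of 20 was called by this test, which called 0.881% of all genes. The median difference of the list was 0.69, and the difference was 0.71 ± 0.40 for CHS. Over all genes the median SE of the difference was 0.24, so the lack of calls does not show that the steps are alike. The list's median change was 1.66 in uvr8-2, 1.12 in cry1cry2 and 1.78 in Ler. PIF4 and CIB1 differed by -0.71 ± 0.19 and -3.13 ± 0.97 without passing (adjusted p = 0.0788 and 0.161).

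In the filter series, which adds UV back to UV0, the medians of the called genes of uvr8-2 stayed on their side of blue0, though not every gene did. The blue0 libraries are shared by all of these values and UV0 was used in the choice, so they are given as levels. For the 1675 higher genes the median log2 level above blue0 was 0.63 under UV0, 0.65 under UVA350, 0.67 under UVA and 0.71 under UVA+B. The 1371 lower genes gave -0.61, -0.54, -0.54 and -0.60. Single genes departed from this flat course. ELIP1 averaged 3.25 CPM under blue0, 779 under UV0, 921 under UVA350, 949 under UVA and 2210 under UVA+B. HY5 averaged 6.28, 15.4, 22.0, 28.2 and 37.1 CPM in the same order, and RUP2 averaged 3.17, 15.3, 23.6, 29.0 and 41.1 CPM. PIF4 kept to 36.1, 37.9, 36.1 and 30.0 CPM under the 4 filters that pass blue light, against 76.0 CPM under blue0. BAM3 was highest under UV0 itself, at 2590 CPM, with 1110 under blue0 and 1450 to 2060 under the filters that add UV.

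**Figure D5:**
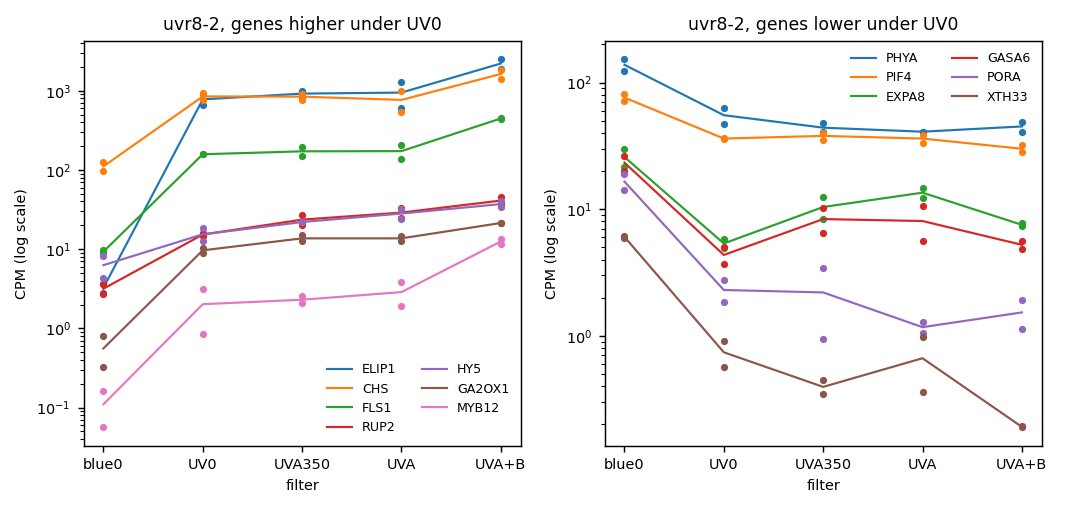
Levels (CPM, log axes) of genes higher (left) and lower (right) under UV0 in uvr8-2 across the 5 filters, 1 point per library and a line through the group means. HY5 averaged 6.28 CPM under blue0 and 37.1 CPM under UVA+B, and PIF4 averaged 76.0 and 30.0 CPM.

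Across the 10 uvr8-2 libraries the pattern of HY5 was most like that of AT5G52030 (Pearson's r of log2 CPM 0.991), followed by AT2G33250 (0.985), AT1G65070 (0.984), HBP1 (0.982) and PrfB3 (0.98). AT3G52740 (BIC1) was most like AT3G56290 (0.996), KEA3, a potassium antiporter of the thylakoid (0.996), and RSR4, an enzyme of vitamin B6 synthesis (0.995). These values describe 10 libraries that share their filters, and RSR4 rose by 2.01 ± 0.18 and KEA3 by 0.81 ± 0.11 in the UV0 against blue0 step.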

How the data were processed

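RNA-seq of whole rosettes was analysed from 1 deposited table of estimated counts for 34212 loci in 30 libraries (12109222 to 22865826 counts each). The tools named, per the submitters' processing notes, are kallisto, Trimmomatic 0.33 and FastQC; what each did, the transcriptome and any strand setting were not given in the sources used here. Expected counts of the authors were rounded to whole numbers. edgeR 4.0.16 (TMM, filterByExpr, robust quasi-likelihood fit, 1 coefficient per group over all 15 groups, 15 residual degrees of freedom) tested UV0 minus blue0 per genotype and the differences between genotypes, with Benjamini-Hochberg adjustment over 19980 genes. CPM used TMM-scaled totals, errors are SE of log2 changes, and a call means adjusted p under 0.05. The method was tested on simulated data. DESeq2, other normalizations, filters, leaving out libraries and a replicate block were alternatives.

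The members and the 29 gene lists were chosen with earlier results of these data known, so the lists are described by counts and medians. The named genes include the 15 called genes with the largest change each way, ranked within limits. The higher uvr8-2 group had to average 5 CPM or more, and the uvr8-2 groups could not overlap. The 5 called genes with the largest difference to cry1cry2 each way were ranked within the same limits. Without these limits 4 called differences passed 4-fold each way, and of those only NIT4 and GA2OX1 are named. Up to 4 members of each list by adjusted p and a fixed set of light-signalling genes were added. Uncalled list members and some others are left out for length. Names come from the RefSeq gene table, which held 97.7% of the loci; no coordinates are given. Nothing says how libraries were derived beyond the pooled blocks, so p-values measure the spread between pools of 1 day.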

Additional observations from a re-analysis of the deposited data

Results flagged for a closer look

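For 10 genes the step between UV0 and blue0 differed between uvr8-2 and cry1cry2 by a direct test in the fit over all genes (edgeR, adjusted p under 0.05), and these had the largest differences that met the naming rule. Values are uvr8-2 minus cry1cry2 on the log2 scale, with SE. Of 5 genes with a more positive step in uvr8-2, NIT4 differed by 3.14 ± 0.65, GA2OX1 by 2.54 ± 0.50, the cellulose synthase-like gene CSLG3 by 1.63 ± 0.36, LHCB4.3 by 1.55 ± 0.27 and AT1G70640, a PB1-domain protein, by 1.52 ± 0.29. NIT4 had 93.9 and 39.6 CPM under UV0 and 4.89 and 6.56 CPM under blue0 in uvr8-2, and 4.60 and 5.55 CPM under UV0 and 4.22 and 3.43 CPM under blue0 in cry1cry2. LHCB4.3 had 49.7 and 51.5 CPM under UV0 and 49.0 and 33.0 CPM under blue0 in cry1cry2.

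Of 5 genes with a more negative step, ESE3 differed by -1.94 ± 0.39, the pseudogene AT1G47606 by -1.92 ± 0.43, the phosphoesterase AT1G25230 by -1.87 ± 0.35, the peroxidase AT2G37130 by -1.72 ± 0.39 and the beta-amylase BMY3 by -1.71 ± 0.36. BMY3 had 3.56 and 2.62 CPM under UV0 and 7.29 and 8.26 CPM under blue0 in uvr8-2, and 17.1 and 15.9 CPM under UV0 and 13.1 and 12.0 CPM under blue0 in cry1cry2. None of the 10 was called in all 8 fits that leave out 1 library.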

How the results depend on the processing

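The 3046 calls of the step in uvr8-2 came to 1303 with only its 4 libraries fitted, 1382 with only the uvr8-2 libraries, 1559 without the libraries over 1% chloroplast counts, 1294 against a fold of 1.2, and 1649 to 2230 without 1 library; scaling to library totals gave 3179 calls, of which 37.3% were higher against 55% before, with the median of all genes at -0.082 (-0.153 in Ler). The 3624 calls of Ler came to 1531 against a fold of 1.2 and 1655 to 2323 without 1 library. The 35 calls of cry1cry2 came to 23 with library totals, 99 with DESeq2, 54 with only its libraries, 13 against a fold of 1.2 and 3 to 53 without 1 library. The 176 calls of the difference to cry1cry2 came to 441 with DESeq2, 15 with only the libraries compared, 42 without the libraries over 1% chloroplast counts, 12 against a fold of 1.2 and 4 to 127 without 1 library. The difference to Ler stayed at 0 calls in every fit run. Fits with fewer libraries have fewer degrees of freedom, and a lone library is assumed to vary like the other groups; otherwise the cause was not tested. Leaving out all organelle loci gave 3052 calls in uvr8-2.

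Among the 111 named genes followed through these settings, 2 uncalled ones changed sign: UVR3 to -0.05 with library totals, -0.11 without the libraries over 1% chloroplast counts, -0.01 with the replicate block, -0.35 without UV0 replicate 2 and -0.1 without blue0 replicate 2 (-0.35 to 0.39 over the fits without 1 library), and HFR1 to 0.04 without UV0 replicate 2 (-0.96 to 0.04).

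The labels do not say that a replicate number marks shared field blocks. Differences between replicates under UV0 and blue0 correlated over genes at 0.204 in uvr8-2, 0.114 in Ler and 0.148 in cry1cry2, and over all 105 pairs of groups from 0.026 to 0.435, with 92 over 0.1. With the number as a block, the calls were 4390 in uvr8-2, 4954 in Ler, 121 in cry1cry2, 0 for the difference to Ler and 689 for the difference to cry1cry2.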
